A study of Mus musculus with 8 samples.

Results

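Retnla, Retnlb, Retnlg, Scgb1a1, Scgb3a1, Scgb3a2, Bpifa1, Muc5b, Foxj1 and Reg3g encode resistin-like molecules and products of the airway lining, and they are 10 of the 24584 genes quantified by RNA-seq in lungs of mice injected with lipopolysaccharide (LPS). They were chosen by gene family and airway cell type and selected on their CPM (counts scaled to library size) in the same lungs. Their difference between the groups is therefore described here without a p-value, and its standard error (SE) is not read as a test. Male ICR mice of 6 to 8 weeks, whose genotype the labels give as "widetype", received 5 mg/kg LPS of Escherichia coli into the peritoneum, and the lungs were collected 12 h later. In the LPS group (n = 4) no tangeretin was given, and whether a vehicle was injected in its place is not known here. In the LPS + Tan group (n = 4), tangeretin, a polymethoxylated flavone of citrus peel, was injected by the same route at 50 mg/kg, 30 min before LPS. The comparison asks how lung transcripts differ when tangeretin precedes endotoxin, and lungs without LPS or with tangeretin alone are not analysed here. Between 38895654 and 39931970 reads per lung were assigned to genes. The tissue label fitted its markers: Sftpc of alveolar type 2 cells reached a mean of 5816 FPKM (fragments per kilobase, scaled to library size) over the 8 lungs and Ager of alveolar type 1 cells 450.0 FPKM.

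Resistin-like molecules are small, cysteine-rich secreted proteins. Retnla (RELM-alpha, also called FIZZ1) is made by alternatively activated macrophages and by lung epithelium under IL-4 and IL-13 acting through STAT6, Retnlb is best known from goblet cells of the gut, and Retnlg from bone marrow and neutrophils. Conducting airways are lined by club cells, which secrete the secretoglobin Scgb1a1, by mucus-producing cells, which secrete Muc5b, and by ciliated cells, whose motile cilia are built under the transcription factor Foxj1.

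On the FPKM scale, which corrects for transcript length, 9 of the 10 genes lay within rank 7286 of 24584. Scgb1a1 ranked 1 of 24584 by mean FPKM and Retnla ranked 26. Scgb3a2 (rank 292), Retnlg (307), Scgb3a1 (328) and Reg3g (395) lay close together, and their group means of 134 to 195 FPKM differed by less than 1.5 times. Foxj1 (rank 3967) and Bpifa1 (4404) followed, with 16.1 ± 0.797 and 6.98 ± 3.03 FPKM (mean ± SD, n = 4) in the LPS group and 14.6 ± 1.50 and 20.0 ± 22.8 FPKM in the LPS + Tan group. Foxj1 was above Bpifa1 in every lung except LPS + Tan replicate 2, where Bpifa1 reached 53.8 FPKM. Muc5b ranked 7286, its CPM being spread over 14980 bases, the length implied by count and FPKM, and Retnlb ranked 13338. Together the 10 genes made up 8.44 ± 1.31% of all FPKM in the LPS group and 7.65 ± 0.726% in the LPS + Tan group (n = 4 each), most of it Scgb1a1.

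**Figure D1:**
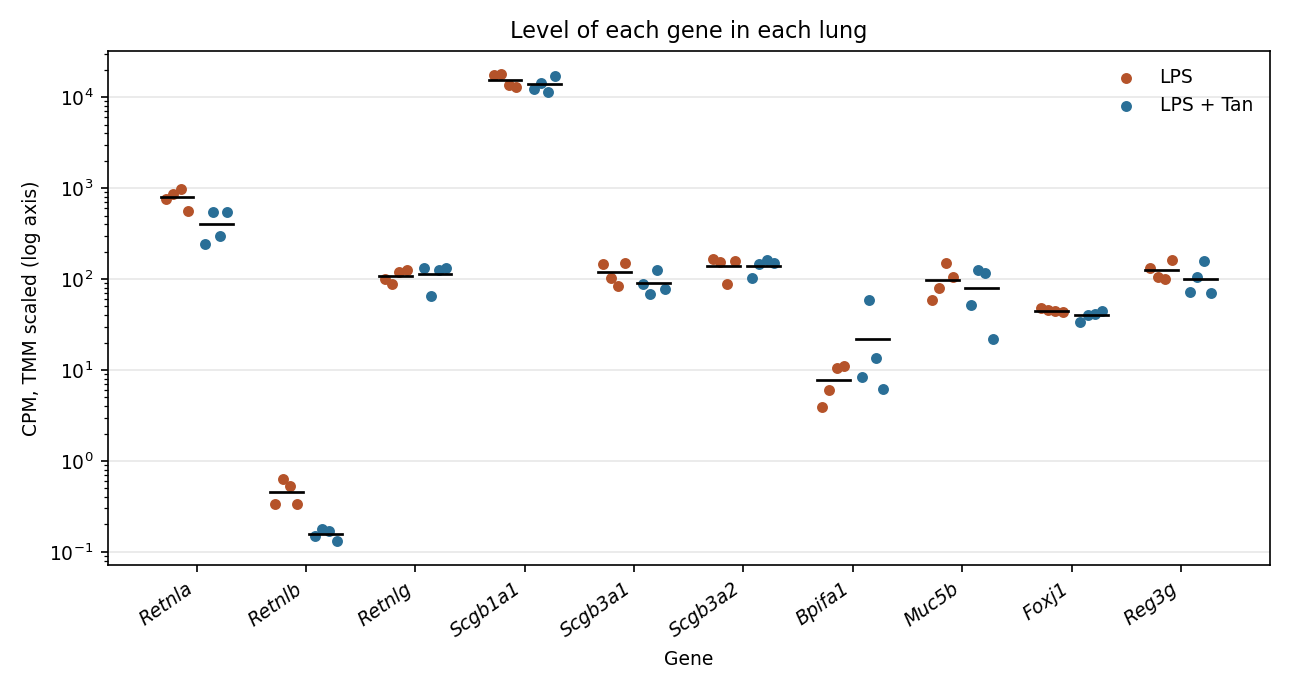
Each point is 1 lung and each black bar the mean of 4 lungs, with CPM after TMM scaling on a log axis for the 10 genes in the LPS and LPS + Tan groups. The groups are separate for Retnla and Retnlb, and the point at 59.2 CPM in Bpifa1 is LPS + Tan replicate 2.

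Retnla was the most abundant resistin-like transcript. In the LPS group it measured 755, 868, 988 and 563 CPM in replicates 1 to 4, and in the LPS + Tan group 244, 541, 297 and 547 CPM. All 4 LPS + Tan lungs were below the lowest LPS lung, although replicates 2 and 4 of the LPS + Tan group came within a few percent of LPS replicate 4. The means were 793 ± 181 CPM and 407 ± 159 CPM (SD, n = 4), a log2 fold change of -0.96 ± 0.28 (SE). Bulk lung RNA cannot tell fewer cells of a type from less RNA per cell, here or for any gene below.

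Retnlb, the colonic member of the family, was close to the limit of detection. Its counts were 13, 25, 20 and 13 in the LPS lungs and 6, 7, 7 and 5 in the LPS + Tan lungs, 71 against 25 in all, beside 187753 for Retnla. The groups did not overlap. The exact 95% Poisson intervals were 6.92 to 22.2 for a count of 13, 12.2 to 30.9 for 20 and 16.2 to 36.9 for 25. A count of 7 gave 2.81 to 14.4. These intervals cover counting error only, so they do not compare the groups. The log2 fold change was -1.52 ± 0.37, from 0.456 ± 0.148 to 0.156 ± 0.0219 CPM, and on the log2(FPKM + 1) scale it was -0.41.

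Retnlg, whose product is found in myeloid cells, measured 99.7, 88.4, 119 and 125 CPM in the LPS lungs and 133, 64.8, 127 and 131 CPM in the LPS + Tan lungs. Except for LPS + Tan replicate 2, every treated lung was above every LPS lung. With that lung the log2 fold change was 0.08 ± 0.21, and without it 0.27. Of the resistin-like genes, Retnlg thus lacked the lower level seen in Retnla and Retnlb, and the FPKM ratio of Retnla to Retnlg was 8.49 ± 2.51 in the LPS group and 4.69 ± 3.32 in the LPS + Tan group (SD, n = 4), with overlap. LPS + Tan replicate 2 had the highest of the 4 ratios in its group, 9.38. The fourth gene of this family in the mouse, Retn (resistin, a product of fat), was not tested, at a mean of 0.160 FPKM.

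The 3 resistin-like genes lie in a row on the plus strand of chromosome 16 (GRCm38, GENCODE M21). Retnlb occupies 48816856 to 48818892, Retnla 48842551 to 48844461 and Retnlg 48872621 to 48874496, each with 4 exons. The intergenic gaps measured 23658 bp and 28159 bp, so that neighbours within 57641 bp differed by more than 1000 times in FPKM. The Retnla and Retnlg transcripts were identical at 84.5% of 587 aligned bases, with a longest shared run of 49 bases, Retnlb and Retnlg at 77.1% of 547 bases, with a longest run of 26, and Retnla and Retnlb at 74.8% of 547 bases, with a longest run of 15. How reads matching more than 1 of these genes were assigned is not known here, so a small exchange of reads cannot be told apart from expression. That bears most on Retnlb, with 5 to 25 counts per lung beside 2549 to 5388 for Retnlg. None of the 10 genes overlapped another annotated gene.

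**Figure D2:**
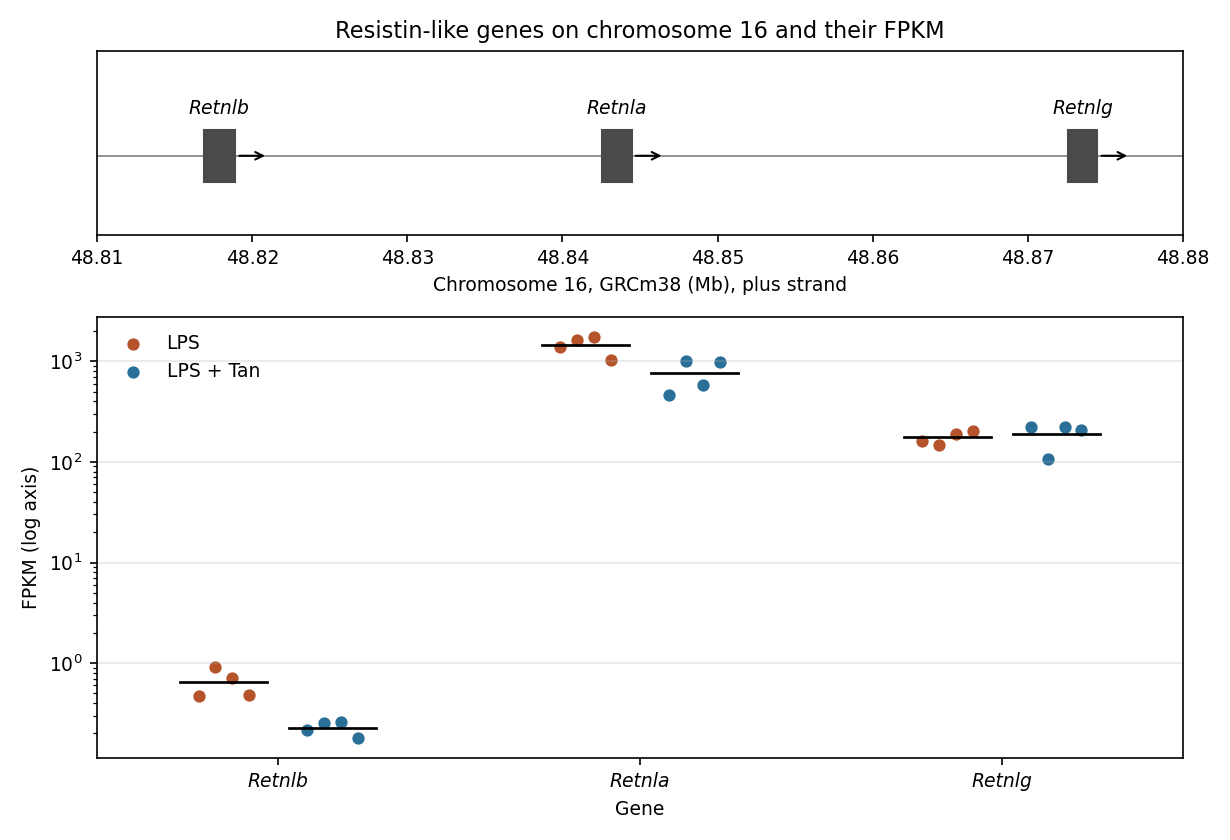
The upper panel maps Retnlb, Retnla and Retnlg to scale on chromosome 16, with arrows for the direction of transcription, and the lower panel gives FPKM on a log axis, each point being 1 lung and each bar the mean of 4. Retnla lies above Retnlg in every lung, and Retnlb below 1 FPKM in every lung.

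Promoter sequence was available for 5 of the 10 genes (RefSeq, GRCm38.p6, 250 bases before to 50 after the annotated start), and those of Retnla and Retnlg are shown because they are the resistin-like genes among the 5. Each was searched on both strands for a STAT6-type palindrome (TTC and GAA with 4 bases between them, present in 6.95% of 32851 mouse promoters), a C/EBP motif (TTGCNNAA, 10.8%) and a FOXA motif (TGTTTAC, 3.65%). The Retnla window, chr16:48842359-48842658 on the plus strand, held the STAT6 letters from base -145 and the C/EBP letters from base -134, relative to the start. The Retnlg window, chr16:48872358-48872657 on the plus strand, held the STAT6 letters from -72, the C/EBP letters from -246 and the FOXA letters from -129. Both starts are those of RefSeq and differ from the GENCODE starts given above. Capitals mark these matches, none of which overlap, and the windows of Scgb3a1, Bpifa1 and Reg3g held none of the 3. A match describes letters, and binding was not measured.
Retnla: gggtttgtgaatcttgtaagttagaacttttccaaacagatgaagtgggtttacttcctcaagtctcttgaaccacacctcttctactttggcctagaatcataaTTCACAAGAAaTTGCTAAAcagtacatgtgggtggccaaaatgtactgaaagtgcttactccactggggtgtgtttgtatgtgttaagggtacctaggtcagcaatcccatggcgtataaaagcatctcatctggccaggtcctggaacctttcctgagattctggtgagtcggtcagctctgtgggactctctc
Retnlg: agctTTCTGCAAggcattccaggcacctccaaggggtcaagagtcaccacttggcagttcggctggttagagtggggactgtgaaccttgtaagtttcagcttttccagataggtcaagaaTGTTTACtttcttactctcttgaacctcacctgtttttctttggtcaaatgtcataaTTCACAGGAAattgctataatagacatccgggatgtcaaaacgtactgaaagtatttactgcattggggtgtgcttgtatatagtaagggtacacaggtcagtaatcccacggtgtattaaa

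Scgb1a1 (club cell secretory protein, on the minus strand of chromosome 19) dominated the secretory genes. It measured 17694, 17992, 13577 and 13030 CPM in the LPS lungs and 12472, 14302, 11492 and 17147 CPM in the LPS + Tan lungs. The ranges overlapped, since LPS + Tan replicate 4 was close to the highest LPS lungs. The log2 fold change was -0.17 ± 0.18 (SE), with means of 15573 ± 2633 and 13853 ± 2485 CPM (SD, n = 4). It was -0.09 without LPS + Tan replicate 3 and -0.29 without LPS + Tan replicate 4. This single gene accounted for 1.21% to 1.81% of all counts and 6.52% to 9.24% of all FPKM in a lung.

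Scgb3a2, a secretoglobin of distal airways encoded on chromosome 18, gave 165, 154, 89.0 and 156 CPM in the LPS lungs and 102, 148, 160 and 150 CPM in the LPS + Tan lungs. In each group 3 lungs lay near 150 CPM with a single lung below them, LPS replicate 3 and LPS + Tan replicate 1, and the group means of 141 ± 35.1 and 140 ± 26.0 CPM coincided. Scgb3a1, a secretoglobin of larger airways, gave 146, 104, 83.1 and 150 CPM in the LPS lungs and 88.9, 68.3, 127 and 77.5 CPM in the LPS + Tan lungs. A log2 fold change of -0.42 ± 0.23 (SE) came with overlapping groups, 2 of the 4 LPS + Tan lungs being below the lowest LPS lung, and it ranged from -0.63 without LPS + Tan replicate 3 to -0.30 without LPS replicate 4. The 2 genes had nearly equal FPKM in the LPS group, with a ratio of Scgb3a1 to Scgb3a2 of 1.04 ± 0.158 (SD, n = 4), and the ratio was 0.798 ± 0.244 in the LPS + Tan group, again with overlap. Scgb1c1 was the sole other secretoglobin found in the tables, at 9.29 FPKM, with a log2 fold change of -0.03 ± 0.31.

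Muc5b encodes the gel-forming mucin that clearance of the airway depends on. It measured 58.5, 80.5, 150 and 106 CPM in the LPS lungs and 51.2, 126, 117 and 21.9 CPM in the LPS + Tan lungs. The treated lungs included both the lowest value and 2 of the higher ones, and the log2 fold change of -0.32 ± 0.48 rested on single lungs, being -0.01 without LPS + Tan replicate 4 and -0.64 without LPS + Tan replicate 2. Bpifa1 (SPLUNC1), an antimicrobial and surface-active protein of upper airways, gave 3.91, 5.95, 10.5 and 11.0 CPM in the LPS lungs and 8.29, 59.2, 13.7 and 6.19 CPM in the LPS + Tan lungs. One lung decided its mean: the log2 fold change was 1.48 ± 0.67 with all lungs and 0.26 without LPS + Tan replicate 2. That lung was also the highest treated lung for Muc5b. Genes listed for cartilage, a tissue of large airways, summed to 8.82, 7.88, 18.7 and 16.5 FPKM in the LPS lungs and 12.2, 7.14, 20.5 and 11.9 FPKM in the LPS + Tan lungs. Most of that sum was Cytl1 and Matn4, with means of 6.54 and 5.07 FPKM over all lungs. Col2a1 and Acan had 0.105 and 0.0820 FPKM, so the sum is not a specific measure of cartilage. Apart from LPS + Tan replicate 2, where the sum was lowest and Bpifa1 highest, lungs with a higher sum also had more Bpifa1, in nearly the same order. This pattern was seen after the values were known, and the part of sampled airway in it was not tested.

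Reg3g, a secreted lectin that kills Gram-positive bacteria and is induced in airway epithelium by IL-17 and IL-22, measured 133, 106, 101 and 162 CPM in the LPS lungs and 72.1, 104, 159 and 69.9 CPM in the LPS + Tan lungs. Replicates 1 and 4 of the LPS + Tan group were the lowest of the 8 lungs and replicate 3 was next to the highest, so the groups overlapped at a log2 fold change of -0.31 ± 0.26. It was -0.16 without LPS replicate 4 and -0.62 without LPS + Tan replicate 3. Its paralogue Reg3b was hardly detected, at 0.113 FPKM.

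Foxj1 was the steadiest of the 10 genes. Its CPM were 47.6, 45.3, 44.1 and 43.2 in the LPS lungs, a coefficient of variation of 4.25%, and 33.4, 40.3, 40.8 and 44.7 in the LPS + Tan lungs, where it was 11.8%. By CPM, Foxj1 was below every LPS lung in 3 of 4 treated lungs, and replicate 4 reached the LPS range. By FPKM, LPS + Tan replicate 3 (15.6 FPKM) was also above LPS replicates 3 and 4 (15.3 and 15.5 FPKM). The log2 fold change was small, -0.18 ± 0.095 (SE), from 45.1 ± 1.91 to 39.8 ± 4.69 CPM (SD, n = 4), and it was -0.11 without LPS + Tan replicate 1.

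Of the 10 genes, all passed the expression filter, Retnlb through its LPS lungs alone. In the LPS + Tan group 8 were lower and 2 higher. Their median log2 fold change was -0.24, against 0.01 over the 15706 genes tested, of which 48.2% were lower. The sign of Scgb3a2 turned with limma-voom, with both FPKM scales and without single lungs, and that of Retnlg without LPS replicate 2 or without LPS + Tan replicate 1. Retnla and Retnlb were the 2 genes with no overlap between groups, a pattern of LPS + Tan below LPS that 1.15% of the tested genes (181) showed. Since the genes were picked on these values, nothing is read from those counts. Across all tested genes edgeR's quasi-likelihood test placed 451 genes (2.87%) higher and 353 (2.25%) lower at an unadjusted p below 0.05. With an absolute log2 fold change above 1 as a further condition, 55 (0.35%) were higher and 47 (0.299%) lower. After Benjamini-Hochberg adjustment 0 genes (0%) passed with edgeR, where the lowest adjusted p was 0.497, and 34 passed with DESeq2. Single lungs weighed on the counts at an unadjusted p below 0.05, which became 820 and 806 without LPS + Tan replicate 2, 761 and 727 without replicate 4, 268 and 212 without replicate 1, and 292 for the higher genes without replicate 3. With the fold change condition, the higher genes became 84 without LPS replicate 1, 88 without LPS replicate 4 and 113 without LPS + Tan replicate 2, and the lower genes 71 without LPS replicate 1, 125 without LPS + Tan replicate 2 and 102 without LPS + Tan replicate 4. Without LPS + Tan replicate 4, 1 gene passed the adjustment in edgeR.

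The other genes of the airway epithelium were then counted from lists that hold none of the 10 genes, by the same edgeR fit at an unadjusted p below 0.05. These lists and those that follow were chosen with earlier results of these data known. Their counts therefore describe the lists and are no independent test of them. Of 31 club cell genes tested, none was higher and none lower, with a median log2 fold change of 0.02, beside 2.87% and 2.25% over all genes. Without LPS replicate 1, 3 of them were higher, without LPS replicate 2 1 was higher, and without LPS + Tan replicate 2 1 was lower. Hp (haptoglobin), the most abundant of the list with 1241 FPKM, had a log2 fold change of -0.27 ± 0.22. The summed level of the club list was 5705 ± 548 FPKM in the LPS group and 5869 ± 449 FPKM in the LPS + Tan group (SD, n = 4). Hp is also in the neutrophil list and Sftpd (642 FPKM) in the alveolar type 2 list, so the sum is not specific to club cells.

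Among 24 goblet and mucous cell genes tested, 0 were higher and 1 lower by edgeR, beside 2.87% and 2.25% over all genes, and the median was -0.16. The lower gene was Pigr, the receptor that carries IgA across the epithelium, with 419, 492, 489 and 399 CPM in the LPS lungs and 185, 398, 338 and 231 CPM in the LPS + Tan lungs. The highest treated lung came just under the lowest LPS lung, and the log2 fold change was -0.64 ± 0.22, with an adjusted p of 0.924 in edgeR's quasi-likelihood test with Benjamini-Hochberg. Leaving out LPS replicate 4, LPS + Tan replicate 2 or LPS + Tan replicate 4 raised the count of lower genes to 3, 4 and 2. The secretory marker Lyz1, the most abundant of the list with 613 FPKM, had a log2 fold change of -0.22 ± 0.18. Summed levels were 999 ± 191 and 879 ± 69.0 FPKM in the LPS and LPS + Tan groups. Lyz1 makes up most of that sum and is also in the alveolar type 2 list, so the sum is not specific to mucous cells.

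Ciliated cells carry the motile cilia that depend on Foxj1. Of 65 ciliated cell genes tested, 58 had a log2 fold change below 0, against 48.2% of all tested genes, and the median was -0.23. At an unadjusted p below 0.05 in edgeR, 6 were lower and 0 higher, beside 2.25% and 2.87% over all genes. Of the 6, Nme9 and Rsph4a had the lowest p. Nme9, a thioredoxin-domain protein of the axoneme, measured 4.02, 3.77, 2.98 and 4.28 CPM in the LPS lungs and 2.29, 2.54, 2.84 and 2.89 CPM in the LPS + Tan lungs, without overlap (log2 fold change -0.51 ± 0.17, edgeR adjusted p = 0.924). Rsph4a, a radial spoke head protein, had a log2 fold change of -0.34 ± 0.12 (edgeR adjusted p = 0.924), and 5 of 16 alternatives put its unadjusted p above 0.05. None of the 6 passed adjustment. The count of lower genes rested on single lungs: it was 3 without LPS replicate 1, 2 without LPS replicate 2, 2 without LPS + Tan replicate 1 and 14 without LPS + Tan replicate 4. The most abundant gene of the list, Sec14l3, had a log2 fold change of 0.12 ± 0.19, and the summed levels, 566 ± 68.1 FPKM in the LPS group and 544 ± 43.1 FPKM in the LPS + Tan group, overlapped.

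Basal cells, the progenitors of the airway, were represented by 6 tested genes with a median of 0.03. Trp63, their master regulator, was lower in edgeR at an unadjusted p below 0.05 (adjusted p = 0.924, log2 fold change -0.78 ± 0.26) and came from a mean of 0.201 FPKM, so that its log2 fold change was -0.12 on the log2(FPKM + 1) scale, while Krt5 had a single count in all 8 lungs. Itga6, the most abundant with 45.1 FPKM, had a log2 fold change of -0.26 ± 0.16. With Krt5 and Trp63 so low, Itga6 is not taken as specific to basal cells. Leaving out LPS + Tan replicate 4 raised the basal count of lower genes from 1 to 2. No basal gene was higher in 14 of 16 alternatives, and 1 was in the others. Over the club, goblet, ciliated and basal lists together, 126 genes were tested, 0 were higher and 8 lower, beside 2.87% and 2.25% over all genes, and the median was -0.17. That count of 8 became 5 without LPS replicate 1, 4 without LPS replicate 2, 4 without LPS + Tan replicate 1 and 18 without LPS + Tan replicate 4. Tuft and neuroendocrine genes (7 tested, median 0.16, led by Uchl1 at 8.10 FPKM), cartilage genes (8 tested, median -0.03, led by Cytl1 at 6.54 FPKM) and the relatives of Bpifa1 (4 tested, median -0.04, led by Lbp at 61.3 FPKM) had none below that p with all lungs. No tuft or neuroendocrine gene was higher in 13 of 16 alternatives, and 1 was in the others, among them the fit without LPS + Tan replicate 1.

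**Figure D3:**
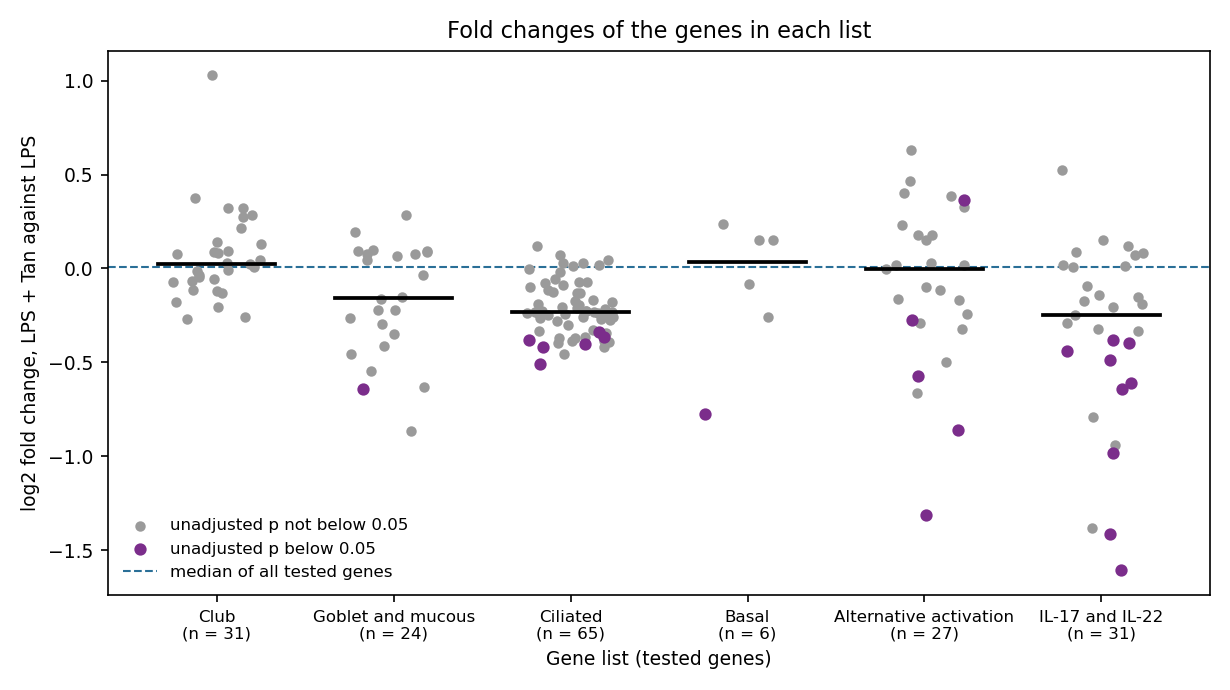
Each point is a tested gene of a list, placed by its log2 fold change in LPS + Tan against LPS, with purple for an unadjusted edgeR p below 0.05, a black bar for the list's median and a dashed line for the median of all tested genes. The ciliated genes gather around -0.23 and the club genes around 0.02.

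Retnla belongs to the transcripts of alternative activation, and 27 other genes of that response were tested. In edgeR, 4 were lower and 1 higher at an unadjusted p below 0.05 (2.25% and 2.87% over all genes), with a median of 0.00. Tgm2, a transglutaminase, measured 1698, 1813, 2290 and 1704 CPM in the LPS lungs and 965, 1576, 1096 and 1417 CPM in the LPS + Tan lungs, without overlap (log2 fold change -0.57 ± 0.17, edgeR adjusted p = 0.924). Pdcd1lg2 (PD-L2), an inhibitory ligand, was also separate between the groups (-0.86 ± 0.23, edgeR adjusted p = 0.895), with -0.21 on the log2(FPKM + 1) scale. The rest, named after their values were seen, were Ccl8 and Il13ra1 among the lower genes and Klf4 as the higher gene. The count of higher genes was 0 without LPS replicate 2, LPS replicate 3, LPS + Tan replicate 1 or LPS + Tan replicate 3, and 2 without LPS replicate 1 or LPS + Tan replicate 2. The macrophage chitinase-like gene Chil3, the most abundant of the list with 899 FPKM and a usual companion of Retnla in such cells, had a log2 fold change of 0.02 ± 0.29. Il4 and Il13, the cytokines that drive this response, had 8 and 1 counts in all 8 lungs and were not tested.

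The IL-17 and IL-22 response of epithelium, to which Reg3g belongs, gave 9 lower and 0 higher genes of 31 tested in edgeR at an unadjusted p below 0.05, where all genes gave 2.25% and 2.87%, with a median of -0.25. Ccl20, which attracts CCR6-bearing cells, measured 10.1, 13.7, 6.17 and 5.44 CPM in the LPS lungs and 2.61, 2.82, 3.60 and 4.24 CPM in the LPS + Tan lungs, all of them lower (log2 fold change -1.42 ± 0.30, edgeR adjusted p = 0.688). Cxcl1, a neutrophil attractant, had a log2 fold change of -0.44 ± 0.12 (edgeR adjusted p = 0.919). The most abundant gene, the acute phase protein Saa3 with 7049 FPKM, had -0.38 ± 0.16 (edgeR adjusted p = 0.924), and 7 of 16 alternatives put it above the threshold. The 9 lower genes became 5 without LPS replicate 1, 4 without LPS replicate 3, 4 without LPS + Tan replicate 1 and 5 without LPS + Tan replicate 3, and 1 gene was higher without LPS + Tan replicate 2. Many genes of this list are also made outside the airway, and Pigr stands in the goblet list as well. The list was chosen with earlier results of these data known, so its count is a description.

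Other cells that could carry these transcripts were counted in the same way, with 2.87% higher and 2.25% lower over all genes. Of 36 neutrophil genes 0 were higher and 0 lower (median -0.03, led by Lcn2 with 5475 FPKM), though 4 were lower without LPS replicate 2, and 1 without LPS replicate 3, LPS + Tan replicate 2 or LPS + Tan replicate 4. Likewise 0 of 18 alveolar macrophage genes passed in either direction (median -0.04, led by Chil3), as did 0 of 15 alveolar type 2 genes (median -0.05, led by Sftpc), 0 of 14 alveolar type 1 genes (median 0.03, led by Ager) and 0 of 13 fibroblast genes (median -0.12, led by Gsn at 541 FPKM), each with at most 1 gene passing in a direction when a lung was left out. Interstitial macrophage and monocyte genes gave 2 higher of 17 (C1qa and Cd163; median 0.16, led by Lyve1 at 756 FPKM), and the higher genes became 4 without LPS replicate 1 or LPS + Tan replicate 4 and 1 without LPS replicate 4 or LPS + Tan replicate 1. Lyve1 itself had a log2 fold change of -0.51 ± 0.23, not below that p. At 2330 CPM in the LPS group, beside 42.0 CPM for C1qa of the same list, Lyve1 is not taken as specific to these cells. In the list, 1 gene was lower without LPS replicate 2, LPS replicate 4 or LPS + Tan replicate 2, with DESeq2, with limma-voom and with no filter. Eosinophil, mast cell and basophil genes gave 2 lower of 11 (Ms4a2 and Mcpt8; median -0.10, led by Kit at 41.8 FPKM). None of these was lower under the filter of 1 CPM in 4 samples, which drops genes of low count, 3 were lower without LPS replicate 3, LPS + Tan replicate 1 or LPS + Tan replicate 2, and 1 was higher without LPS + Tan replicate 2 and on both FPKM scales. Kit had a log2 fold change of 0.18 and passed as higher in those same 3 fits. At 203 CPM in the LPS group, beside 0.814 CPM for Cpa3 of the same list, Kit is not taken as specific to these cells. Adipose genes gave 1 higher of 8 (Adrb3), with a median of 0.17 and Fabp4 leading at 49.5 FPKM. Adrb3 passed in none of the fits without LPS replicate 2, 3 or 4 or without LPS + Tan replicate 1 or 4. The count of higher adipose genes was 1 in 9 of 16 alternatives and 0 in the others. Endothelial genes gave 5 higher of 13 (Sox18, Sox17, Eng, Kdr and Tek; median 0.26, led by Cldn5 at 415 FPKM), and 3 without LPS replicate 1 but 2 without LPS replicate 2, LPS replicate 3 or LPS + Tan replicate 1. Gut and oesophagus genes, a check for foreign tissue in view of Retnlb and Reg3g, gave 1 tested gene, Vil1, at 0.133 FPKM, which did not pass. The genes in parentheses other than the leading ones were named after their values were seen. All these lists, the endothelial one included, were chosen with earlier results of these data known, so their counts are a description.

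Within groups, co-variation was measured as the correlation of log2 CPM after removal of each group's mean, over 8 lungs and 13 pairs chosen by name. For Foxj1 and the mean of the ciliated genes, Pearson's r was 0.65 (exact permutation p = 0.0295, adjusted p = 0.384) and Spearman's rho 0.69 (exact permutation p = 0.0625, adjusted p = 0.522), and r was 0.57 without the 2 lungs farthest from the median of Foxj1. Scgb1a1 and the club list gave an r of 0.70 (exact permutation p = 0.101, adjusted p = 0.436) and a rho of 0.62 (exact permutation p = 0.142, adjusted p = 0.522), but r was 0.26 without LPS replicates 1 and 2, so the relation rested on those lungs. Retnlg and the neutrophil list gave an r of 0.46 (exact permutation p = 0.0903, adjusted p = 0.436) and a rho of 0.50 (exact permutation p = 0.193, adjusted p = 0.522), with 0.20 after the same removal for Retnlg. The neighbours Retnla and Retnlb gave an r of 0.33 (exact permutation p = 0.368, adjusted p = 0.581), a rho of 0.31 (exact permutation p = 0.361, adjusted p = 0.522) and an r of 0.71 without 2 lungs. Retnla and Retnlg gave -0.51 (exact permutation p = 0.333, adjusted p = 0.581), a rho of -0.43 (exact permutation p = 0.443, adjusted p = 0.576) and an r of -0.17 without 2 lungs. None of the 13 pairs passed adjustment, and the other 8 had adjusted p values for r of 0.491 to 0.941.

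For each of the 10 genes, the 2 genes whose deviations followed it most closely among 13736 genes of at least 1 CPM are given as a description. Foxj1 was followed by 2 genes of the ciliary axoneme and its assembly, Pih1d2 (r = 0.98) and Ribc1 (r = 0.98). The nearest to Scgb1a1 were the detoxifying enzyme gene Pon3 (r = 0.98) and Fah (r = 0.98), a gene of tyrosine breakdown. Retnla was followed by Fbxo4 and Nmd3, Retnlb by Map2k3os and Tsr2, and Retnlg by Hoxa3 and Sp140. For the other genes they were Nudt7 and Gli1 (Scgb3a1), Armc9 and Nudt18 (Scgb3a2), Kdm3a and Wac (Bpifa1), Erich3 and Tab3 (Muc5b), and Tcf23 and Plin4 (Reg3g). With 8 lungs such values are common: between 18 and 216 genes had an r above 0.9 with each of the 10.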

How the data were processed

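RNA of lung tissue was sequenced on an Illumina instrument in 4 LPS and 4 LPS + Tan mice. The authors deposited raw read counts per gene and FPKM values for the same 8 libraries. On extraction the sources differ: TRIzol with a VAHTS library kit in the methods, an RNeasy column with another kit in the labels. The submitters' processing notes name GRCm38 and mm10. The aligner, the counting tool and the annotation were not named in what was read here. The gene length implied by count, deposited FPKM and total count was constant across lungs within 1% for 22534 of 22534 genes with 2 or more values above 0.

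Group differences in counts came from edgeR 4.0.16 under R 4.3.3 (filterByExpr, TMM, quasi-likelihood F test, two-sided, Benjamini-Hochberg over 15706 genes), after a check on simulated data. The SE of a log2 fold change was its absolute value divided by the square root of the F statistic of that test. CPM are TMM scaled, and TMM factors lay between 0.959 and 1.05. Correlations used exact permutation within groups (576 arrangements, smallest possible p 0.00174), Benjamini-Hochberg adjusted over 13 pairs. Alternatives were DESeq2 1.42.0, RLE scaling, no filter, 1 CPM in 4 samples, limma 3.58.1 (voom, and log2 of FPKM plus 1 or 0.1), a block for the replicate number, and every lung dropped in turn. Transcripts were aligned with Biopython 1.88. Positions came from GENCODE M21.

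The members and lists were chosen with earlier results of these data known. Of 456 list entries, 414 were found in the tables. By rule, the genes named were, besides the 10, the most abundant gene of each list by FPKM, up to 2 genes with the lowest p below 0.05 in each list of airway cells, gene families or responses, and the 2 most alike genes. Krt5, Il4, Il13 and, where 5 or fewer passed in a list, the remaining passing genes fall outside this rule and were named after their values were seen. Pairs of libraries in a group differed by 8.61 to 28.2 times the median squared deviation that counting noise gives, so none was a repeat. The edgeR p-values set a group difference against the variation between these mice, estimated with information shared across genes. The permutation p-values set a correlation against rearrangements of the lungs within groups.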

Additional observations from a re-analysis of the deposited data

Results flagged for a closer look

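Within each group of 4 lungs, a highest or lowest lung was singled out where its gap to the next lung passed the limit of a Dixon test for 4 values. Of 60 groups examined, 6 met this, and chance gives about 3. Retnlg in LPS + Tan replicate 2 was the lowest of its group, with a gap of 0.941 of the range (64.8 CPM against 127 to 133 CPM). Scgb3a2 in LPS replicate 3 was the lowest of its group, with a gap of 0.886 (89.0 CPM against 154 to 165 CPM). For the goblet and mucous list, LPS replicate 4 had the highest mean of log2 CPM over genes (gap 0.963). The list's summed level in that lung was the lowest of the LPS group (850 FPKM). For alternative activation, the highest mean of log2 CPM was in LPS + Tan replicate 4 (gap 0.862). In LPS replicate 3, the mean log2 CPM of the IL-17 and IL-22 list was highest with a gap of 0.849. That of the eosinophil, mast cell and basophil list was lowest with a gap of 0.859. By summed level, the latter list was at 66.9 FPKM there, above LPS replicate 4 (64.5 FPKM). LPS replicate 3 thus appeared 3 times among the 6, and whether this lung differed in handling or in response was not tested.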

How the results depend on the processing

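Across the alternatives no result changed sign past its threshold. Retnla kept a log2 fold change between -1.14 and -0.78 in all 16 alternatives. Retnlb was -1.15 with log2(FPKM + 0.1) and -0.41 with log2(FPKM + 1), where the pseudocount exceeds its level, and it had no value under the 1 CPM filter. Bpifa1 ranged from 0.26 (without LPS + Tan replicate 2) to 1.79 when single lungs were left out.

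The number of genes past an unadjusted p of 0.05 ranged over left-out lungs from 268 to 820 higher and from 212 to 806 lower, and 569 were lower with no filter, where more genes were tested. With an absolute log2 fold change above 1 added, DESeq2 gave 113 higher and 111 lower, no filter 220 and 198, the 1 CPM filter 18 and 23, log2(FPKM + 0.1) 19 and 21, and log2(FPKM + 1) 5 and 9, and the cause was not tested. Left-out lungs gave 37 to 113 higher and 38 to 125 lower. Adjusted p below 0.05 was reached by 34 genes with DESeq2 and by 0 to 1 with a lung left out (1 without LPS + Tan replicate 4). Over the 4 airway lists, limma-voom gave 1 higher gene, and left-out lungs gave 0 to 3 higher and 4 to 18 lower. None of the 13 correlations passed adjustment in any of 10 alternatives, but with a lung left out too few arrangements exist for this to show stability.

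Samples with the same replicate number had deviations correlated at r of 0.123, -0.031, -0.148 and 0.020, within the -0.206 to 0.216 of samples with unlike numbers. No pairing by number was seen, but so few values cannot exclude one. With the replicate number as a block, 397 genes were higher and 429 lower at an unadjusted p below 0.05, 0 passed adjustment, and Retnla had a log2 fold change of -1.02. The block moved no count past the limit used for the others, turned the sign of Scgb3a2 (0.01) and gave Bpifa1 0.95. Among other results 74 values moved, 12 lost the threshold (Rsph4a in 5 settings, Saa3 in 7) and 10 gained it (Lyve1, Kit, Itga6 and Lcn2). Depth limits Retnlb, with 5 to 25 counts per lung, and no lung without LPS bounds the levels.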
